A study of Homo sapiens with 6 samples.

Results

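The genes described here encode the enzymes that move nucleosomes and the enzymes that write and erase histone and DNA marks. Members were chosen by name, as protein-coding genes of the SMARC, CHD, HDAC, SIRT, KMT, KDM and KAT families with ARID1A, ARID1B, ARID2, the Polycomb genes EZH1, EZH2, EED and SUZ12, the coactivators EP300 and CREBBP, and the DNMT and TET genes, leaving out KDM3A, KDM5D and KDM6A. This gave 86 of the 50868 listed genes. RNA was sequenced from cells labelled A549, a lung adenocarcinoma line, that received an siRNA against SF3B4 (3 libraries, replicates 1 to 3) or a scramble control siRNA, labelled NC siRNA (3 libraries, genotype WT). Such RNAs are short duplexes that guide cleavage of transcripts they match. SF3B4 encodes a subunit of the SF3b complex, which binds the branch point region of introns during splicing. Each value is an FPKM, which scales fragments to transcript length and library size. The lengths used are not known here, so comparisons of level between genes, and shares of paralogs, are approximate. No label states the siRNA sequence, its dose or the harvest time. The titles call the replicates biological without saying what was separate, so each p-value measures only the spread between these samples.

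Chromatin remodellers use ATP to slide, eject or restructure nucleosomes, and their subunits assemble into large complexes such as SWI/SNF. Acetyltransferases and deacetylases add and remove acetyl groups on histone tails, marks found at active genes. Lysine methyltransferases and demethylases set methyl marks that are read as active or repressive depending on the residue, and DNMT and TET enzymes add and oxidise methyl groups on cytosine in DNA. A549 is known to carry a truncating mutation in SMARCA4, 1 of the 2 alternative SWI/SNF ATPases. FPKM values do not show mutations.

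SF3B4 stood at 22, 17.7 and 22.3 FPKM in SF3B4 siRNA libraries and at 88.6, 92 and 93.8 FPKM in control siRNA libraries, 22.6% of the control mean (log2 fold change -2.15, SE 0.10, limma adjusted p = 8.8e-05). A two-sided exact permutation test returned 0.1, the smallest p that 3 against 3 allows. Titles and treatment labels name SF3B4 throughout and were followed, although the genotype field reads SF3B5 knockdown for replicate 2 and SF3B6 knockdown for replicate 3. SF3B5 had 201, 189 and 207 FPKM in SF3B4 siRNA libraries and 393, 432 and 453 FPKM in control siRNA libraries, low in all 3 and not in replicate 2 alone, while SF3B6 had 39.1, 43.3 and 42.2 FPKM and 48.7, 46.5 and 42.5 FPKM and did not pass the test. The column headings of the tables name another lung cancer line, H1650. Keratin and epithelial markers (KRT7, KRT8, KRT18, KRT19 and EPCAM) were all present, with a summed level of 1416 to 1479 FPKM in SF3B4 siRNA libraries and 1311 to 1517 FPKM in control siRNA libraries, but 5 of 9 genes listed as typical of A549 had a mean below 1 FPKM, with AKR1C1 at 0.0393 and 0.045 FPKM and ALDH1A1 at 0.0301 and 0.0202 FPKM in SF3B4 siRNA and control siRNA libraries. These low levels and the headings do not match the A549 label, and the cells are called A549 here only as labelled. Of 4 immune markers 1 was tested, CD14, which rose; their summed level was 4.76 to 6.59 FPKM in SF3B4 siRNA libraries and 2.46 to 2.87 FPKM in control siRNA libraries, and PTPRC was listed at 0 in all 6. Of 4 fibroblast markers 1 was tested, COL1A1, which rose; their sum was 2.27 to 2.42 FPKM and 1.31 to 1.49 FPKM, and COL1A2, PDGFRB and DCN were near 0. The 3 endothelial markers summed to 0.101 to 0.135 FPKM and 0.0694 to 0.151 FPKM. The part of these differences in the results was not tested. The implied depth was 17511125 to 18529764 fragments per library, so 1 FPKM corresponds to 17.5 to 18.5 fragments per kilobase of transcript. In bulk RNA, fewer cells of a kind and less RNA per cell cannot be told apart.

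Of the 86 members, 60 reached 1 FPKM in at least 3 of the 6 libraries and entered the test, limma on log2(FPKM + 0.1) over 9685 genes. In that fit 21 members passed an adjusted p of 0.05, or 35%, beside 34.1% of all tested genes. There were 13 members higher after SF3B4 siRNA (16% of all tested genes were higher) and 8 lower (18.1% of all tested genes were lower). The share of members called is near the share of all genes, so the count itself is not a result about these enzymes. Their median log2 fold change was 0.11, beside -0.0035 over all tested genes, and 36 were above 0 and 24 below it, beside 4800 and 4885 of all tested genes. The median log2 deviation of members from the control mean was 0.062, 0.17 and 0.085 in SF3B4 siRNA replicates 1 to 3. It was 0.095, -0.037 and -0.019 in control siRNA replicates 1 to 3, so this median overlapped between the groups. Groups did not overlap in 30 of the 60 tested members, beside 49.5% of all tested genes. Most calls were small. Only KAT2A changed by 2-fold or more, a size that 4.05% of all tested genes reached with a call, and 10 of the 21 called members changed by 1.4-fold or more. Of the 21 calls, 10 held in every alternative that tested them and 11 were lost in at least 1 of 15 alternatives, all without a change of direction. Without SF3B4 siRNA replicate 1 there were 7 higher and 3 lower members, without control siRNA replicate 3 there were 7 and 4, without SF3B4 siRNA replicate 2 there were 8 and 5, without SF3B4 siRNA replicate 3 there were 8 and 6, and without control siRNA replicate 1 there were 13 and 5 and without control siRNA replicate 2 there were 10 and 6. The median was 0.17 without control siRNA replicate 1 and 0.05 without control siRNA replicate 2.

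**Figure D1:**
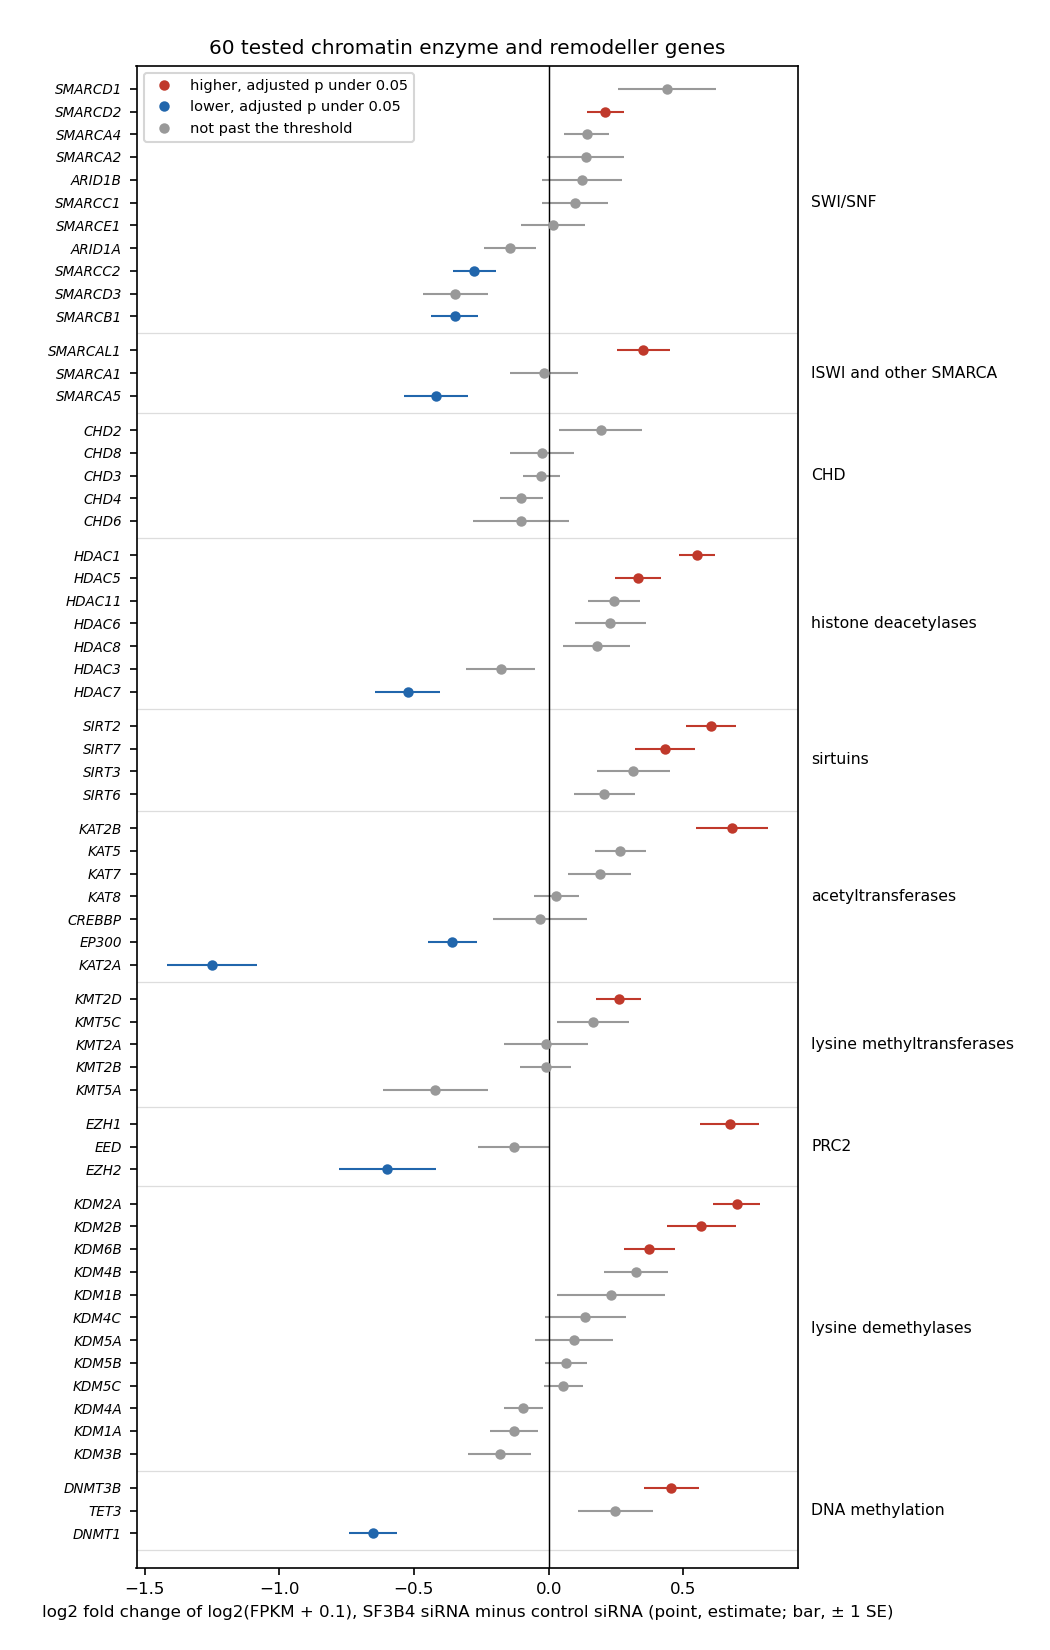
Log2 fold change (SF3B4 siRNA minus control siRNA, on the log2(FPKM + 0.1) scale) of the 60 tested members, grouped by role, with bars of 1 standard error. Red points (13) and blue points (8) passed an adjusted p of 0.05, and KAT2A, at -1.25, lies farthest from 0.

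Levels ran over a wide range. HDAC1 was the most abundant member, with a mean of 48.4 FPKM over the 6 libraries, followed by CHD3 at 39 FPKM and SMARCB1 at 20.2 FPKM. In all, 10 members averaged 10 FPKM or more and 26 averaged less than 1 FPKM. KDM4F was listed at 0 in every library, KDM4E in all but SF3B4 siRNA replicate 3, and HDAC9, a class IIa deacetylase, averaged 0.0154 FPKM. The tested members had a median of 22 exons in the transcript with the longest coding sequence, beside 9 for all 8475 tested protein-coding genes. Spearman's rho between exon number and log2 fold change was -0.21 over the 60 tested members and 0.01 over the protein-coding genes, a description across genes that share libraries and are not independent.

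**Figure D2:**
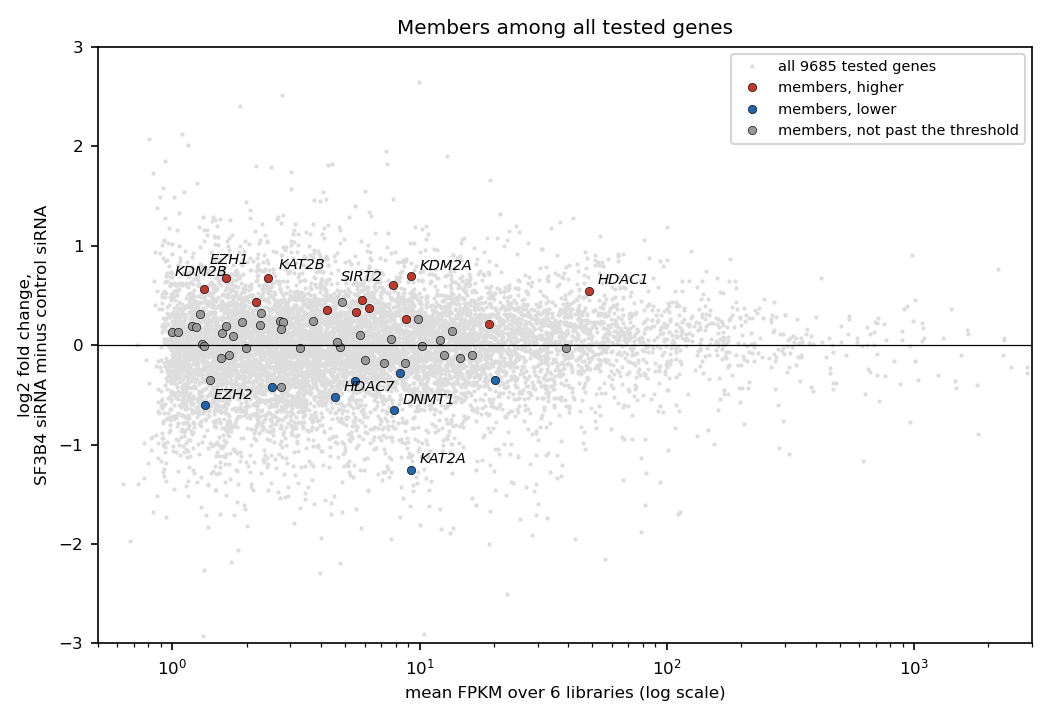
Mean FPKM over 6 libraries (log scale) against log2 fold change (SF3B4 siRNA minus control siRNA) for all 9685 tested genes in grey, with the 60 tested members on top; 9 genes lie outside the axes. The members lie within the cloud of all genes, with KAT2A lowest and HDAC1 farthest to the right.

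Short sequences in 3' UTRs were described because carriers of GCCTTCA or CCTTCAA were lower in these libraries as a class in earlier results of these data, on which the motifs were picked. Both 7-mers were searched on the sense strand of GENCODE 29 transcripts (GRCh38); they share the 6 letters CCTTCA and can overlap as 8 letters. Of the 85 members with a searched 3' UTR, 19 (22.4%) carried at least 1 of the motifs, beside 20.5% of all 18978 searched genes. Of the 60 tested members 12 were carriers, of which 1 fell and 1 rose (8.33% lower), beside 32.9% of 1710 tested carriers among all genes lower and 9.59% higher. The median log2 fold change was 0.19 in the 12 carriers and 0.04 in the 48 other members, beside -0.18 in all tested carriers and 0.02 in other tested genes. The sites of the 1 member that fell (KAT2A), the 1 that rose (SIRT2), the low-level SIRT1 and 2 carriers that did not pass the test (KDM4B with 3 GCCTTCA sites in 2 alternative 3' UTRs, and HDAC8, of which only the 8-letter overlap is shown and a further match to each motif is left out) are printed 5′ to 3′, with the motif in capitals and flanking bases of the transcript in lower case.
KAT2A, chr17:42113456-42113462, minus strand: gctctgtcccaGCCTTCActgtgtgtgag
SIRT2, chr19:38878669-38878675, minus strand: cccgagtctctGCCTTCAgctcccaaagt
SIRT1, chr10:67918297-67918303, plus strand: ctggatatcttCCTTCAActtttgaaata
KDM4B, chr19:5113238-5113244, plus strand: tcctgggggctGCCTTCAcccagcagcaa
KDM4B, chr19:5113306-5113312, plus strand: ttttcttgaaaGCCTTCAgtatgtaaaac
KDM4B, chr19:5152680-5152686, plus strand: gagaaaaaacgGCCTTCAgcccaggctgg
HDAC8, chrX:72467687-72467693, minus strand: aatctaattatGCCTTCAaagcacacaca
The lines show the same 7 letters in KAT2A and SIRT2, which went in opposite directions. In the HDAC8 line the capitals and positions mark GCCTTCA only, and the next letter, in lower case, ends the overlapping CCTTCAA. A match is a description of the annotated 3' UTR and not a site shown to act, and its part in any result was not tested.

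Among SWI/SNF subunits, the complex that evicts and slides nucleosomes at enhancers and promoters, 11 of 12 members were tested, 1 was higher and 2 were lower. SMARCB1, a core subunit (ENSG00000099956, chromosome 22, 23786931 to 23838008), had 16.6, 18 and 18.6 FPKM in SF3B4 siRNA libraries and 20.7, 24.7 and 22.7 FPKM in control siRNA libraries. All 3 SF3B4 siRNA values lay below all control values, and the log2 fold change was -0.35 (SE 0.09; limma adjusted p = 0.018). DERL3, at 0.0477 FPKM and transcribed from the opposite strand, covers 17.7% of the exonic length of SMARCB1. The scaffold subunit SMARCC2, whose value is uncertain because MYL6 (112 and 95 FPKM in SF3B4 siRNA and control siRNA libraries) covers 6.01% of its exonic length from the opposite strand, averaged 7.52 ± 0.384 FPKM after SF3B4 siRNA and 9.12 ± 0.281 FPKM in controls (SD, n = 3 each; log2 fold change -0.28, limma adjusted p = 0.030). SMARCD2, an accessory subunit, averaged 20.5 ± 1.06 FPKM and 17.7 ± 0.453 FPKM in the same groups (SD, n = 3 each; log2 fold change 0.21, limma adjusted p = 0.0497). The alternative ATPases did not pass the test. SMARCA4 averaged 14.2 ± 0.433 FPKM after SF3B4 siRNA and 12.9 ± 1.15 FPKM in controls, and SMARCA2 averaged 1.05 ± 0.1 and 0.948 ± 0.092 FPKM (SD, n = 3 each), so SMARCA2 made up 6.9% and 6.83% of their summed level in the 2 groups. The large DNA-binding subunits ARID1A (5.73 and 6.35 FPKM after SF3B4 siRNA and in controls) and ARID1B (1.65 and 1.51 FPKM) did not pass either. SMARCD1 averaged 5.65 ± 1.56 and 4.06 ± 0.351 FPKM in SF3B4 siRNA and control siRNA libraries (SD, n = 3 each), with replicate 2 of SF3B4 siRNA at 7.44 FPKM above the other 2 at 4.92 and 4.6 FPKM, and its limma adjusted p was 0.10. SMARCD3 averaged 1.23 and 1.6 FPKM (limma adjusted p = 0.061, and 0.030 without intensity trend and robust option; range over its alternatives 0.030 to 0.17). CHPF2, at 25.8 FPKM over the 6 libraries, covers 1.23% of the exonic length of SMARCD3 from the opposite strand, so the SMARCD3 value is uncertain. SMARCC1 and SMARCE1 differed by a log2 fold change of 0.10 and 0.02 and did not pass. The SMARCB1 call was lost without SF3B4 siRNA replicate 1 (limma adjusted p = 0.065), control siRNA replicate 2 (0.054) or control siRNA replicate 3 (0.053), with a range of 0.013 to 0.065 over 15 alternatives. Without the filter on low values all 3 SWI/SNF calls were lost (limma adjusted p = 0.052 for SMARCB1, 0.056 for SMARCC2 and 0.090 for SMARCD2). SMARCC2 lost its call without any SF3B4 siRNA replicate (limma adjusted p = 0.053, 0.097 and 0.081 without replicates 1, 2 and 3) and without control siRNA replicate 1 (0.053) or 3 (0.087), and its range was 0.026 to 0.097. SMARCD2 lost its call without any 1 library (limma adjusted p 0.074 to 0.17) and without the intensity trend and robust option (0.078; range over its alternatives 0.038 to 0.17).

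The ISWI ATPase genes space nucleosomes along genes. SMARCA5 averaged 2.15 ± 0.144 FPKM after SF3B4 siRNA and 2.91 ± 0.357 FPKM in controls (SD, n = 3 each; log2 fold change -0.42, limma adjusted p = 0.031), whereas its paralog SMARCA1 averaged 4.72 ± 0.301 and 4.8 ± 0.758 FPKM and did not pass. SMARCAL1, an annealing helicase that acts at stalled replication forks, had 4.67, 5.03 and 4.54 FPKM in SF3B4 siRNA libraries and 3.96, 3.76 and 3.4 FPKM in control siRNA libraries. It was higher in all 3 SF3B4 siRNA libraries than in any control, by a log2 fold change of 0.35 (limma, SE 0.10 and adjusted p = 0.027). SMARCA5 lost its call without SF3B4 siRNA replicate 1 or 2 (limma adjusted p = 0.094 and 0.081) and without control siRNA replicate 1 or 2 (0.061 and 0.054), with a range of 0.025 to 0.094. SMARCAL1 lost it without any SF3B4 siRNA replicate (limma adjusted p = 0.067, 0.092 and 0.053) and without control siRNA replicate 2 or 3 (0.057 and 0.088), with a range of 0.016 to 0.092. Both calls were also lost without the filter on low values (limma adjusted p = 0.074 for SMARCA5 and 0.058 for SMARCAL1).

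None of the 5 tested CHD remodellers passed the test, by limma at adjusted p, and 0 had an unadjusted p under 0.05. CHD3 and CHD4 encode the ATPases of the NuRD complex, which pairs remodelling with deacetylation. CHD4 had 12.2, 11.7 and 12.6 FPKM in SF3B4 siRNA libraries and 14, 12.4 and 12.7 FPKM in control siRNA libraries, with a log2 fold change of -0.10 (limma, SE 0.08 and adjusted p = 0.36), and the groups overlapped. CHD3 averaged 38.6 ± 1.17 FPKM after SF3B4 siRNA and 39.4 ± 2.36 FPKM in controls (SD, n = 3 each). CHD2, CHD6 and CHD8 lay between 1.11 and 2 FPKM in both groups' means, with log2 fold changes of 0.19, -0.10 and -0.02. A p that misses the threshold does not show that these levels were equal.

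Histone deacetylases remove acetyl groups from histone tails, and class I enzymes such as HDAC1 act as the catalytic part of several corepressor complexes. Of 11 genes 7 were tested, 2 were higher and 1 was lower. HDAC1 (ENSG00000116478, chromosome 1, 32292086 to 32333635) had 55.1, 59.5 and 58.1 FPKM in SF3B4 siRNA libraries and 41.6, 37.4 and 38.9 FPKM in control siRNA libraries. The groups were far apart, with a log2 fold change of 0.55 (limma, SE 0.07 and adjusted p = 0.00097). Its class I paralog HDAC2 was listed at 0.523 ± 0.0515 FPKM after SF3B4 siRNA and 0.747 ± 0.0956 FPKM in controls (SD, n = 3 each). HDAC2 lay below the level needed for the test. HDAC7, a class IIa enzyme (chromosome 12, 47782722 to 47833132), had 4.01, 3.98 and 3.17 FPKM after SF3B4 siRNA and 4.98, 5.32 and 5.81 FPKM in controls, and fell by 0.52 on the log2 scale (SE 0.12, limma adjusted p = 0.013). Its class IIa relative HDAC5 rose, with means of 6.16 ± 0.341 and 4.87 ± 0.202 FPKM in SF3B4 siRNA and control siRNA libraries (SD, n = 3 each; log2 fold change 0.33, limma adjusted p = 0.022). HDAC3, the catalytic subunit of NCoR complexes, averaged 8.24 and 9.29 FPKM and did not pass, and neither did HDAC6 (3.04 and 2.57 FPKM), HDAC8 (1.33 and 1.16 FPKM) or HDAC11 (4.03 and 3.39 FPKM, limma adjusted p = 0.091). HDAC5 lost its call without SF3B4 siRNA replicate 1 or 2 (limma adjusted p = 0.056 and 0.078) and without control siRNA replicate 3 (0.055), with a range of 0.018 to 0.078.

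Sirtuins are deacylases that use NAD as a cofactor. Of 7 genes 4 were tested, and 2 rose. SIRT2, which acts mainly in the cytoplasm on tubulin and also on histones (ENSG00000068903, chromosome 19, 38878555 to 38899862), had 9.39, 9.6 and 9.24 FPKM in SF3B4 siRNA libraries and 5.49, 6.52 and 6.52 FPKM in control siRNA libraries. Every SF3B4 siRNA value exceeded every control value, and the log2 fold change was 0.60 (SE 0.09; limma adjusted p = 0.0026). The GCCTTCA match in its 3' UTR is printed above. SIRT7, a nucleolar enzyme, averaged 2.52 ± 0.154 and 1.85 ± 0.157 FPKM in SF3B4 siRNA and control siRNA libraries (SD, n = 3 each; log2 fold change 0.43, limma adjusted p = 0.021). The mitochondrial SIRT3 (1.44 and 1.14 FPKM) and the nuclear SIRT6 (2.44 and 2.09 FPKM) did not pass; PSMD13, at 8.7 FPKM over the 6 libraries, covers 6.07% of the exonic length of SIRT3 from the opposite strand, so the SIRT3 value is uncertain. SIRT7 lost its call without SF3B4 siRNA replicate 1 or 3 (limma adjusted p = 0.065 and 0.072) and without control siRNA replicate 3 (0.054), with a range of 0.015 to 0.072.

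The acetyltransferases held the largest single change and a pair of close paralogs that went in opposite directions. KAT2A and KAT2B are alternative catalytic subunits of the SAGA and ATAC coactivator complexes. KAT2A (ENSG00000108773, chromosome 17, 42113108 to 42121358) had 5.03, 4.41 and 7.04 FPKM in SF3B4 siRNA libraries and 12, 12.8 and 14.2 FPKM in control siRNA libraries, 42.3% of the control mean. The log2 fold change was -1.25 ± 0.17 (SE, limma adjusted p = 0.0016) and lay between -1.44 and -1.11 over 15 alternatives. KAT2B (ENSG00000114166, chromosome 3, 20040023 to 20154404) had 2.8, 3.42 and 2.87 FPKM after SF3B4 siRNA and 2.06, 1.6 and 1.92 FPKM in controls, with a log2 fold change of 0.68 (limma, SE 0.13 and adjusted p = 0.0070). KAT2A thus made up 64.2%, 56.3% and 71% of the summed level of both genes in SF3B4 siRNA libraries and 85.4%, 88.9% and 88.1% in control siRNA libraries. The exons of KAT2A overlap those of a gene on the same strand, AC099811.2, over 10.7% of their length, so the KAT2A value is uncertain; that gene averaged 19.5 ± 0.776 FPKM after SF3B4 siRNA and 15.7 ± 0.911 FPKM in controls (SD, n = 3 each), the opposite direction. EP300, which acetylates histones at enhancers, averaged 4.8 ± 0.214 and 6.19 ± 0.476 FPKM in SF3B4 siRNA and control siRNA libraries (SD, n = 3 each; log2 fold change -0.36, limma adjusted p = 0.021), while its paralog CREBBP averaged 3.23 and 3.34 FPKM and did not pass. KAT5, the TIP60 enzyme, averaged 10.8 and 8.99 FPKM (limma adjusted p = 0.067), but RNASEH2C, transcribed from the opposite strand, covers 38.6% of its exonic length and the value is uncertain. KAT7 (1.76 and 1.53 FPKM) and KAT8 (4.66 and 4.57 FPKM) did not pass. A pseudogene, KAT7P1, was listed at a mean of 0.751 FPKM, so the KAT7 value is uncertain. EP300 lost its call without SF3B4 siRNA replicate 1 or 3 (limma adjusted p = 0.075 and 0.055) and without control siRNA replicate 3 (0.053), with a range of 0.019 to 0.075.

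**Figure D3:**
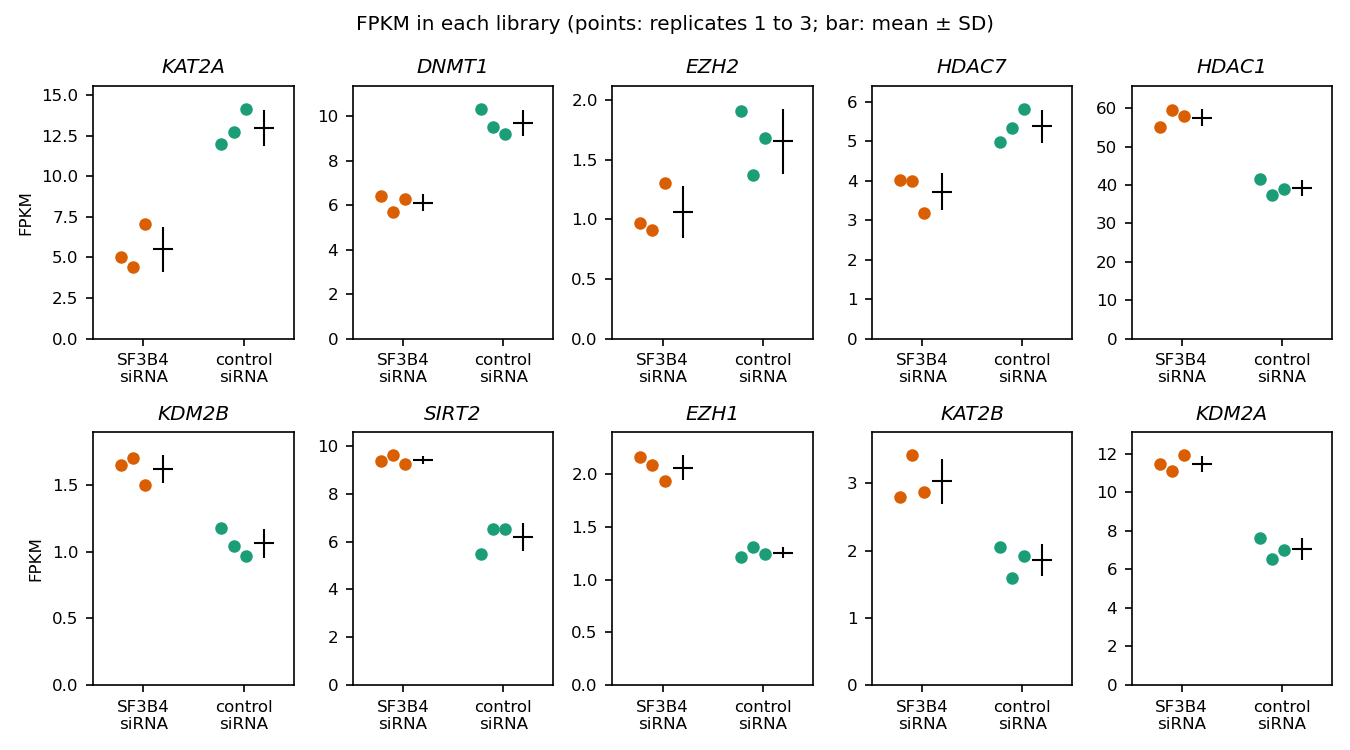
FPKM in each library for the 10 called members that changed by 1.4-fold or more, with points for replicates 1 to 3 and a bar for the mean ± SD (n = 3 each); each panel has its own linear axis from 0. In every panel the SF3B4 siRNA points lie on one side of all control siRNA points, below for KAT2A, DNMT1, EZH2 and HDAC7 and above for the other 6.

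Polycomb repressive complex 2 writes a repressive methyl mark on histone H3 through the alternative catalytic subunits EZH1 and EZH2, with EED and SUZ12 as core partners; EZH2 is the form associated with dividing cells. EZH1 (ENSG00000108799, chromosome 17, 42700275 to 42745049) had 2.16, 2.08 and 1.93 FPKM in SF3B4 siRNA libraries and 1.21, 1.31 and 1.24 FPKM in control siRNA libraries, with a log2 fold change of 0.67 (limma, SE 0.11 and adjusted p = 0.0033). EZH2 (ENSG00000106462, chromosome 7, 148807383 to 148884321) had 0.969, 0.909 and 1.31 FPKM after SF3B4 siRNA and 1.92, 1.37 and 1.68 FPKM in controls, with a log2 fold change of -0.60 (limma, SE 0.18 and adjusted p = 0.036). The EZH2 groups came close, with SF3B4 siRNA replicate 3 at 1.31 FPKM just below control replicate 2 at 1.37 FPKM. EZH2 entered the test mainly through the control siRNA libraries, as SF3B4 siRNA replicates 1 and 2 were below 1 FPKM. Its fall is limited by that. EZH1 made up 69.1%, 69.6% and 59.6% of the summed EZH1 and EZH2 level in SF3B4 siRNA libraries and 38.7%, 48.9% and 42.5% in control siRNA libraries. EED averaged 1.5 and 1.65 FPKM and did not pass, and SUZ12 lay below the level needed for the test, at 0.531 ± 0.0717 and 0.769 ± 0.106 FPKM (SD, n = 3 each). The EZH2 call was lost without SF3B4 siRNA replicate 1 or 2 (limma adjusted p = 0.096 and 0.11), without control siRNA replicate 1 or 3 (0.10 and 0.096) and without the filter on low values (0.096), with a range of 0.022 to 0.11.

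Of the other lysine methyltransferases 5 of 8 were tested and 1 rose. KMT2D, which marks enhancers with a single methyl group, had 9.86, 9.31 and 9.71 FPKM in SF3B4 siRNA libraries and 8.62, 7.99 and 7.49 FPKM in control siRNA libraries, with a log2 fold change of 0.26 (limma, SE 0.08 and adjusted p = 0.045). Its paralog KMT2C was at 0.58 ± 0.0524 and 0.385 ± 0.0799 FPKM (SD, n = 3 each), below the level needed for the test. The promoter-bound KMT2B averaged 10.2 and 10.3 FPKM and KMT2A 1.33 and 1.35 FPKM in SF3B4 siRNA and control siRNA libraries, and neither passed. KMT5A, which writes a mark of mitotic chromatin, averaged 2.34 ± 0.535 and 3.15 ± 0.645 FPKM (SD, n = 3 each; limma adjusted p = 0.13), and a pseudogene, KMT5AP2, was listed at a mean of 5.2 FPKM, so reads could be split between them and its value is uncertain. KMT5C averaged 2.9 and 2.59 FPKM. The KMT2D call was lost without any SF3B4 siRNA replicate (limma adjusted p = 0.13, 0.078 and 0.12 without replicates 1, 2 and 3) and without control siRNA replicate 2 or 3 (0.096 and 0.13), with a range of 0.025 to 0.13. It was also lost without the filter on low values (limma adjusted p = 0.086) and without the intensity trend and robust option (0.053).

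Lysine demethylases remove methyl marks, and of 16 genes 12 were tested, 3 rose and none fell (0 lower in limma, and 0 at an unadjusted p under 0.05). KDM2A and KDM2B bind unmethylated CpG islands through a CxxC domain. KDM2A (ENSG00000173120, chromosome 11, 67119269 to 67258087) had 11.5, 11.1 and 11.9 FPKM in SF3B4 siRNA libraries and 7.63, 6.52 and 7.02 FPKM in control siRNA libraries, with a log2 fold change of 0.70 (limma, SE 0.09 and adjusted p = 0.0011). KDM2B (ENSG00000089094, chromosome 12, 121429097 to 121581015) had 1.65, 1.71 and 1.51 FPKM after SF3B4 siRNA and 1.18, 1.05 and 0.967 FPKM in controls, with a log2 fold change of 0.57 (limma, SE 0.13 and adjusted p = 0.012). These paralogs moved alike, and KDM2A made up 87.6% ± 1.07 and 86.9% ± 0.891 of their sum in SF3B4 siRNA and control siRNA libraries (SD, n = 3 each). KDM6B, a demethylase of the Polycomb mark, averaged 7.02 ± 0.0857 and 5.41 ± 0.543 FPKM (SD, n = 3 each; log2 fold change 0.37, limma adjusted p = 0.020). The most abundant demethylase genes did not pass, with KDM4A at 15.8 and 16.8 FPKM, KDM1A, which encodes LSD1, at 13.9 and 15.2 FPKM and KDM5C at 12.3 and 11.9 FPKM in SF3B4 siRNA and control siRNA libraries. KDM4B, with 3 GCCTTCA sites, averaged 2.54 and 2.01 FPKM (limma adjusted p = 0.070), and KDM3B averaged 6.68 and 7.65 FPKM. KDM6B lost its call without any SF3B4 siRNA replicate (limma adjusted p = 0.057, 0.061 and 0.054) and without control siRNA replicate 3 (0.055), with a range of 0.016 to 0.061.

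Among DNA methylation genes, the maintenance and a de novo methyltransferase gene went in opposite directions. DNMT1, which copies methylation onto the new strand after replication (ENSG00000130816, chromosome 19, 10133345 to 10231286), had 6.41, 5.68 and 6.28 FPKM in SF3B4 siRNA libraries and 10.3, 9.53 and 9.2 FPKM in control siRNA libraries. It fell to 63.2% of the control mean, with a log2 fold change of -0.65 (limma, SE 0.09 and adjusted p = 0.0015). DNMT3B, which sets new methylation, averaged 6.78 ± 0.416 and 4.93 ± 0.468 FPKM (SD, n = 3 each), with all 3 SF3B4 siRNA values above all controls and a log2 fold change of 0.46 (limma, SE 0.10 and adjusted p = 0.011). DNMT3A, the other de novo enzyme, had 0.723, 0.789 and 0.654 FPKM after SF3B4 siRNA and 1.09, 0.947 and 0.939 FPKM in controls, and was not tested. TET3, the most abundant of the methylcytosine dioxygenase genes, averaged 2.95 and 2.49 FPKM (limma adjusted p = 0.21, and 0.030 without control siRNA replicate 1; range over its alternatives 0.030 to 0.47), while TET1 and TET2 were below 1 FPKM in every library.

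The 26 members below the filter were read from the fit without it, in which 10.9% of 24450 genes and 2.38% of the genes below the filter were called. There 2 of the 25 with a value above 0 were called, both lower. SIRT1, a nuclear deacetylase, had 0.353, 0.323 and 0.316 FPKM in SF3B4 siRNA libraries and 0.63, 0.521 and 0.545 FPKM in control siRNA libraries (log2 fold change -0.63 without the filter, limma adjusted p = 0.038); it carries CCTTCAA as printed above. CHD5 had 0.437, 0.561 and 0.46 FPKM after SF3B4 siRNA and 0.863, 0.95 and 0.734 FPKM in controls (log2 fold change -0.70 without the filter, limma adjusted p = 0.037). Values of both groups stayed apart in these genes. Groups did not overlap in 10 low members with lower values after SF3B4 siRNA (HDAC2, HDAC4, SUZ12, CHD7, DNMT3A, TET1, TET2 and KMT5B beside SIRT1 and CHD5) and in 2 with higher values, KMT2C and SIRT5. The share of all genes below the filter without overlap was not counted, so these counts are not a result about the members. Of the 25, 19 had a log2 fold change below 0 and 6 above, with a median of -0.17, beside -0.0040 over all genes below the filter. The split over all genes below the filter was not counted, and those genes were not matched to the members in level. Neither the split nor the median is therefore a result about the members. HDAC10, at 0.919 and 0.842 FPKM, shares 55.8% of its exonic length with MAPK12 on the same strand and its value is uncertain. AL441883.1, at 0.947 FPKM over the 6 libraries, covers 16.1% of the exonic length of SIRT5 from the opposite strand. A pseudogene of SUZ12, SUZ12P1, was listed at a mean of 0.423 FPKM. The SIRT5 and SUZ12 values are therefore uncertain too.

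Paralogs that can fill the same place in a complex were compared as a share within each library, which a single scaling factor per library does not alter. The 15 pairs were chosen after the values had been seen. Groups did not overlap in 8 of 15 pairs. The 49.5% of single tested genes without overlap is an unlike measure, and no share was counted for other pairs of genes. The count of 8 is therefore not a result about these pairs. The exact two-sided permutation test on the log2 ratio gave at best p = 0.1, the smallest it allows, or 0.19 adjusted over the 15 pairs, so no pair could pass. Apart from KAT2A with KAT2B and EZH1 with EZH2, the difference in log2 ratio was largest for HDAC1 over HDAC2 (0.99), in which HDAC1 made up 99.1% ± 0.0961 after SF3B4 siRNA and 98.1% ± 0.139 in controls (SD, n = 3 each), and for DNMT3A over DNMT3B (-0.86). DNMT3A made up 9.66% ± 1.3 of that pair in SF3B4 siRNA libraries and 16.8% ± 0.843 in control siRNA libraries (SD, n = 3 each). SMARCA1 made up 68.7% ± 0.2 and 62.2% ± 0.971 of the ISWI pair (SD, n = 3 each). With a pseudocount of 1, tried after seeing the data, the difference in log2 ratio was 0.80 for EZH1 over EZH2, -0.60 for DNMT3A over DNMT3B and 0.74 for HDAC1 over HDAC2. The share of SMARCA2 against SMARCA4 and of KMT2A against KMT2B differed by a log2 ratio of -0.0034 and 0.0029.

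**Figure D4:**
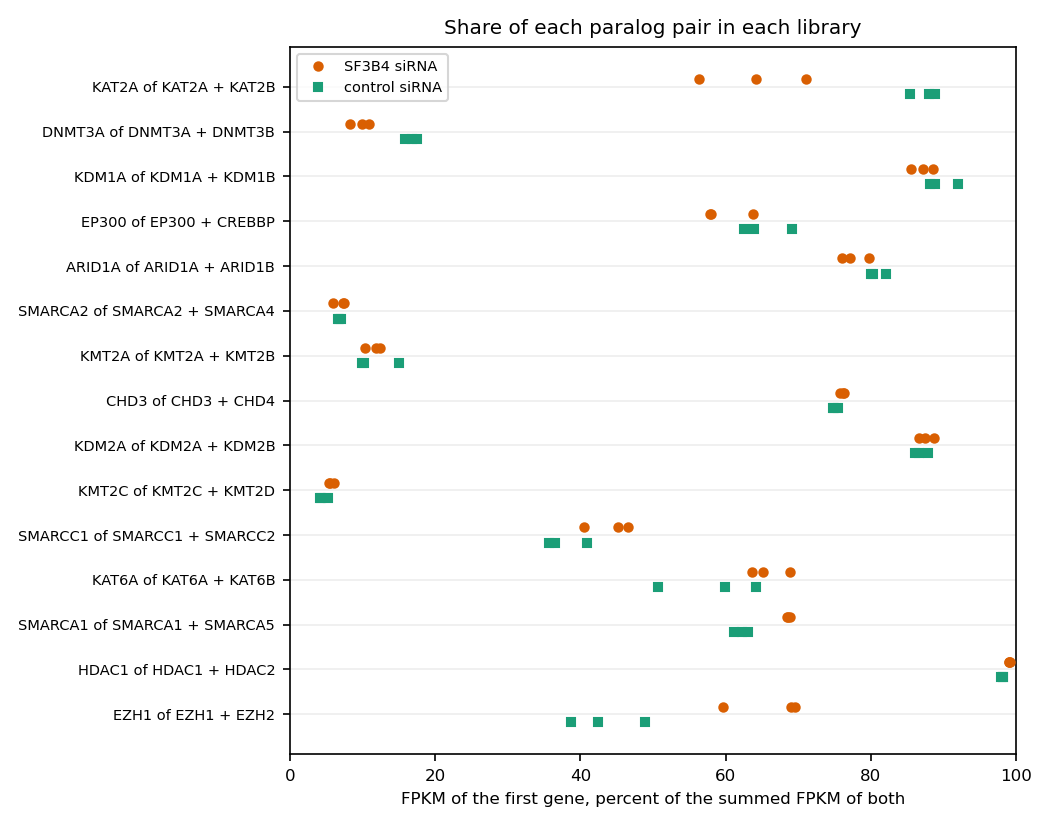
Share of the first gene in the summed FPKM of each of 15 paralog pairs, in percent, in each SF3B4 siRNA library (circles) and control siRNA library (squares), ordered by the difference in log2 ratio. The KAT2A share lies at 56.3% to 71% after SF3B4 siRNA and 85.4% to 88.9% in controls, and the EZH1 share at 59.6% to 69.6% and 38.7% to 48.9%.

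A wider list of 118 partner and related chromatin genes had 90 tested, of which 17 rose and 21 fell, beside 16% and 18.1% of all tested genes, and its median log2 fold change was -0.05. All values that follow are means of FPKM in SF3B4 siRNA and then control siRNA libraries (SD, n = 3 each). The COMPASS list holds the shared core of KMT2 methyltransferases together with subunits that are not shared by all, such as CXXC1. In this list 3 of 8 tested genes fell and none rose (0 higher in limma, and 0 at an unadjusted p under 0.05). DPY30 averaged 5.68 ± 0.392 FPKM after SF3B4 siRNA and 10.2 ± 1.49 FPKM in controls, WDR5 averaged 21.1 ± 2.06 and 29.4 ± 0.0628 FPKM, and CXXC1 averaged 1.83 ± 0.0067 and 2.57 ± 0.148 FPKM. Of 9 NuRD subunits, 4 were lower and 1 was higher. GATAD2A was at 3.88 ± 0.323 and 6 ± 0.0823 FPKM, GATAD2B at 2.92 ± 0.168 and 4.53 ± 0.393 FPKM, and MTA1, which rose, at 9.46 ± 0.525 and 7.11 ± 0.663 FPKM. Of 10 other SWI/SNF subunits, 4 rose and 2 fell. The actin-related subunit ACTL6A fell, with 5.46 ± 0.438 FPKM after SF3B4 siRNA and 9.35 ± 1.24 FPKM in controls, SS18 fell too, with 1.89 ± 0.102 and 2.59 ± 0.155 FPKM, and BICRA rose, with 3.31 ± 0.189 and 2.08 ± 0.206 FPKM. SS18 and MTA1 lost their calls without SF3B4 siRNA replicate 1 (limma adjusted p = 0.056 and 0.051, with ranges of 0.0097 to 0.056 and 0.0095 to 0.051).

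Of 14 other Polycomb genes tested, 5 rose and 4 fell, beside 16% and 18.1% of all tested genes. The counts of each list that follows stand beside the same shares, and no list was tested as a set. CBX2, a reader of the Polycomb mark, fell, with 4.39 ± 0.548 FPKM after SF3B4 siRNA and 8.61 ± 1.08 FPKM in controls (SD, n = 3 each; limma adjusted p = 0.0015). Its relative CBX7 rose, with 4.96 ± 0.378 and 3.28 ± 0.0973 FPKM (SD, n = 3 each). RNF2, a catalytic ubiquitin ligase of Polycomb repressive complex 1, fell, with 1.45 ± 0.105 and 2.31 ± 0.265 FPKM. Its more abundant relative RING1 rose, with 61.8 ± 3.57 and 45.05 ± 3.29 FPKM (log2 fold change 0.46, limma adjusted p = 0.0039). In the SIN3, CoREST and NCoR corepressors 1 of 10 rose and 3 fell, among them RCOR1, which links LSD1 to HDAC1 (3.78 ± 0.325 and 6.28 ± 0.258 FPKM in SF3B4 siRNA and control siRNA libraries). SIN3A fell, with 1.91 ± 0.116 and 2.89 ± 0.605 FPKM (limma adjusted p = 0.027, range 0.023 to 0.081), and SIN3B rose, with 11 ± 1.38 and 8.72 ± 0.192 FPKM (limma adjusted p = 0.043, range 0.017 to 0.13). Of 14 other histone methyltransferase genes, 5 were higher and 1 was lower. DOT1L averaged 3.77 ± 0.102 and 2.2 ± 0.0676 FPKM and CARM1 averaged 18.1 ± 0.583 and 12.5 ± 0.886 FPKM, while SETD7 averaged 1.48 ± 0.12 and 0.613 ± 0.133 FPKM and passed the filter only through the SF3B4 siRNA libraries, so it had to differ. In INO80, SRCAP and TIP60 complexes 1 of 10 fell, TRRAP, with 5.47 ± 0.334 and 6.91 ± 0.585 FPKM (limma adjusted p = 0.034, range over its alternatives 0.030 to 0.11), and none rose (0 higher in limma, 1 at an unadjusted p under 0.05). Of 2 tested ISWI partners none passed (0 in limma, 1 lower at an unadjusted p under 0.05). Of 4 other demethylase genes 1 fell, PHF2, with 3.69 ± 0.168 and 5.8 ± 0.521 FPKM. UHRF1, which brings DNMT1 to newly replicated DNA, fell alongside DNMT1, with 1.83 ± 0.263 FPKM after SF3B4 siRNA and 3.12 ± 0.417 FPKM in controls (SD, n = 3 each; limma adjusted p = 0.0077). ING4, a reader in acetyltransferase complexes, rose, with 4.19 ± 0.308 and 2.49 ± 0.154 FPKM. ING5 fell, with 1.37 ± 0.0512 and 1.76 ± 0.0248 FPKM (limma adjusted p = 0.043, range 0.014 to 0.12).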

How the data were processed

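Total RNA of 6 samples was sequenced. The files the authors deposited hold FPKM values, 1 for each gene in each library. The submitters' processing notes list the build GRCh38 and, without roles, StringTie 1.3.0 and HISAT2 2.0.4. Annotation, strand setting and filters are unknown here, so overlapping genes may share reads. Of 50868 identifiers 49659 had a symbol in a gene name table and 50111 were in GENCODE 29, which gave gene types, positions, exons and 3' UTRs. Depth was read from single-exon genes, in which 99.1% to 99.5% of low values came within 0.02 of whole fragments; it covers counting error only.

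Genes with at least 1 FPKM in at least 3 of 6 libraries were fitted with limma 3.58.1 in R 4.3.3 on log2(FPKM + 0.1) (intensity trend, robust, two-sided), and p-values were adjusted by Benjamini-Hochberg over 9685 genes. Fold changes on this scale understate changes of low genes. The fit was tested on simulated data. Exact permutation tests used scipy 1.17.1. Alternatives changed pseudocount, filter, scaling, moderation, replicate block and each library. Any member found by the rule could be named, but not all of them are. Values per library are given past 1.4-fold, or for the smallest p of a role group. From the wider list up to 3 called genes per complex with the largest change are given, with RING1 added beside RNF2. Members and lists were chosen with earlier results of these data known, and the paralog pairs after the values were seen.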

Additional observations from a re-analysis of the deposited data

How the results depend on the processing

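SF3B4 log2 fold change kept its call in all 15 alternatives (-2.21 to -2.04). Each scaling alternative gave 13 members higher and 8 lower; genes called higher and genes called lower numbered 1738 and 1636 with quantile normalization. With a mean FPKM of at least 5, where 26 members were tested, members higher and lower were 8 and 5, genes called higher 1027 and genes called lower 940, the wider list 9 and 12, and the median log2 fold change of tested members 0.021. Without the filter, members higher and lower were 10 and 6, with 7 of the 21 calls lost (EZH2, KMT2D, SMARCA5, SMARCAL1, SMARCB1, SMARCC2 and SMARCD2), and 2 members carrying a 7-mer were lower. Leaving out 1 library gave 1094 to 1492 genes higher and 1331 to 1604 lower, 7 to 13 members higher and 3 to 6 lower, 10 to 15 and 14 to 19 of the wider list, and a member median of 0.053 to 0.17; the cause was not tested. The replicate block gave 9 members higher and 5 lower and 2827 genes called, beside 3298. It ended the calls of EP300, KMT2D, SIRT7, SMARCA5, SMARCAL1, SMARCC2 and SMARCD2. Same-numbered libraries correlated at -0.080, 0.024 and -0.12 in their deviations from group means. These values show no pairing by number, but 3 libraries per group are too few to exclude it. In all, 11 members that were not called changed sign in some alternative; the cause was not tested. Rescaled to TPM, KMT2A log2 fold change was 0.010, KMT2B log2 fold change 0.0074 and SMARCA1 log2 fold change 0.0019. With quantile normalization, CHD8 log2 fold change was 0.014, CREBBP log2 fold change 0.012, KMT2A 0.055, KMT2B 0.010 and SMARCA1 0.034, and with median ratio scaling KMT2A was at 0.00033. Leaving out 1 library gave -0.056 to 0.022 for CHD3 log2 fold change, -0.24 to 0.053 for CHD6 log2 fold change, -0.095 to 0.052 for CHD8, -0.20 to 0.11 for CREBBP, -0.0055 to 0.056 for KAT8 log2 fold change, -0.0024 to 0.36 for KDM1B log2 fold change, -0.013 to 0.22 for KDM5A log2 fold change, -0.087 to 0.15 for KMT2A, -0.089 to 0.028 for KMT2B, -0.081 to 0.11 for SMARCA1 and -0.021 to 0.060 for SMARCE1 log2 fold change. About 17.5 fragments per kilobase at 1 FPKM limit what can be seen in the 26 members below the filter.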
